A study of Mus musculus with 4 samples.

Results

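Oxidative phosphorylation is the last stage of respiration in mitochondria. Complexes I and II pass electrons from NADH and succinate to ubiquinone, complex III passes them to cytochrome c, complex IV hands them to oxygen, and complex V (ATP synthase) makes ATP from the proton gradient that complexes I, III and IV build. Most subunits are encoded in the nucleus. A small catalytic set is encoded by mitochondrial DNA, and several complex IV subunits exist as common and tissue-specific or oxygen-responsive versions. Embryonic stem cells rely heavily on glycolysis, and respiration gains weight as they differentiate.

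Nuclear-encoded subunits were taken by gene symbol: names of the Ndufa, Ndufb, Ndufc, Ndufs and Ndufv series, Cox4 to Cox8, Uqcr, Atp5 and the Sdh genes a to d. This gave 84 of the 24015 genes in the count files, of which 37 carry complex I names, 4 complex II, 8 complex III, 18 complex IV and 17 complex V. Names do not always give the function. Ndufa4 is a subunit of complex IV, Ndufa4l2 is its paralog, Cox7a2l helps complexes III and IV associate, and Atp5s and Atp5sl are now named as distal membrane arm assembly proteins (RefSeq symbols Dmac2l and Dmac2). Leaving out Ndufa4l2, Cox7a2l, Atp5s, Atp5sl and the tissue isoforms, 73 established subunits remained, of which 69 were tested. In values for established subunits by complex, Ndufa4 was counted in complex IV, and elsewhere it stayed in complex I by its name.

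RNA was sequenced from mouse embryoid bodies, which are aggregates of differentiating embryonic stem cells, harvested on day 7. The stem cell lines, at passages 8 to 10 and of an outbred strain, came from embryos with both Trim33 alleles floxed and a UbcCreERT2 transgene, a Cre recombinase driven by a ubiquitin promoter and activated by 4OH-Tamoxifen, which was given on day 4 to induce Trim33-deficiency. There were 2 Control libraries, whose genotype is labelled wild type, and 2 Trim33-deficient libraries, described as 2 independent pairs. The labels do not say whether Control bodies received 4OH-Tamoxifen or how many lines were used. Trim33 encodes a chromatin-associated cofactor of SMAD signalling.

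The libraries held 10422738 to 13808837 counts in genes, and 0.783% to 0.866% of these fell on the subunit genes. Counts of Trim33 were 1203 and 1117 in Control against 608 and 495 in Trim33-deficient bodies, which is 42.6% of the Control level after scaling. With 2 libraries a group, edgeR's quasi-likelihood test across all genes gave Trim33 an adjusted p of 0.219, and DESeq2 called it lower. Control replicate 1 stood apart from the other 3 libraries, with correlations of log2 levels over genes of 0.932 to 0.952, against 0.967 to 0.978 among the others. Cell-type markers differed between libraries: the summed level of 10 visceral endoderm markers was 1009 and 1066 CPM (counts scaled to library size by the trimmed mean of M-values) in Control and 89.9 and 79.3 in Trim33-deficient bodies, and that of 10 cardiomyocyte markers was 210 and 572 against 1565 and 435. The part of these markers' cells in the values below was not tested.

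Promoters of 6 subunit genes are shown first because the subunit genes were level as a group, and these short windows show the sequence elements that many of them share. Each runs from 250 bases before to 50 bases after the annotated start, 5′ to 3′ along the gene's strand, from RefSeq on GRCm38.p6. One is given for each complex, plus Ndufs7, the core subunit with the lowest relative level in Trim33-deficient bodies. All 6 windows hold a match to the letters below, whereas 35 of the 69 subunit genes with a window held none. They are therefore not typical of the subunit genes. Capitals mark matches to GCGCA and GCGC with 1 base of any kind between them (bound by NRF1), CCGGAAG (bound by ETS factors such as GABP) or AA and ATGGCGG with 1 base of any kind between them (bound by YY1), searched on both strands.
Ndufs7, complex I, chr10:80249199-80249498, plus strand: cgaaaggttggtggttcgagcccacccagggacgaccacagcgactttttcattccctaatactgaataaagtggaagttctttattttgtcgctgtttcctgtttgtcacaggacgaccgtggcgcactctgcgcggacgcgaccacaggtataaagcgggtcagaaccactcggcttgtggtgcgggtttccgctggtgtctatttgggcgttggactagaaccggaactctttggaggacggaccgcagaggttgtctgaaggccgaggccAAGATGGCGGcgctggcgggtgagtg
Ndufa6, complex I, chr15:82354242-82354541, minus strand: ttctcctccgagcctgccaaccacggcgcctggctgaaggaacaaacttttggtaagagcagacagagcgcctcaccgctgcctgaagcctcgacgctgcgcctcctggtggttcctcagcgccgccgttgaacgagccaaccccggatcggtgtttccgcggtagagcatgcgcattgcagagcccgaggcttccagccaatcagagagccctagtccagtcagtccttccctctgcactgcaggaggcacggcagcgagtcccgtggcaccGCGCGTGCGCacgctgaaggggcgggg
Sdha, complex II, chr13:74350191-74350490, minus strand: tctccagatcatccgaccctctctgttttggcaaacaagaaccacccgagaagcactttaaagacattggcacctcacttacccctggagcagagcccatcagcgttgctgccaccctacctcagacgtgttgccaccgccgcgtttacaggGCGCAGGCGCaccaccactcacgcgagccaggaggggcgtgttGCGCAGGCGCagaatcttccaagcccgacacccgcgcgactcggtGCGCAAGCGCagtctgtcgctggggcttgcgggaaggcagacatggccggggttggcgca
Uqcrc1, complex III, chr9:108936398-108936697, plus strand: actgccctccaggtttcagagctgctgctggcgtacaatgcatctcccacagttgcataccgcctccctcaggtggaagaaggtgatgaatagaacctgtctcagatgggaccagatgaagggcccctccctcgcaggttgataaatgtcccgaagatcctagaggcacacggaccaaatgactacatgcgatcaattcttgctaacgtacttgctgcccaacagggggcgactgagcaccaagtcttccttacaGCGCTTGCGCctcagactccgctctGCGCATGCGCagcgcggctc
Cox6a1, complex IV, chr5:115348909-115349208, minus strand: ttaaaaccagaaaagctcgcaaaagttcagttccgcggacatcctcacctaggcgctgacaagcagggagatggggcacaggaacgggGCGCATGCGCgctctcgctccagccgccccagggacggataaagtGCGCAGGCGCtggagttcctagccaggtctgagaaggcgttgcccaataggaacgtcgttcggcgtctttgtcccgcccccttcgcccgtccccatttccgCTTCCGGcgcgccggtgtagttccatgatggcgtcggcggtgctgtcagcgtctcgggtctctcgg
Atp5b, complex V, chr10:128083057-128083356, plus strand: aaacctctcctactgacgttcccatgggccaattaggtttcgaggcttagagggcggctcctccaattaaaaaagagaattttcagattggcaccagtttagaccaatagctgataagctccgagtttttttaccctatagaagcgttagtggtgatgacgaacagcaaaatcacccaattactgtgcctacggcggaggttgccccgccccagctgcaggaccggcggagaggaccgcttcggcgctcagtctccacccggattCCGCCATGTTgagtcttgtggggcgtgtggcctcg
Sdha held 3 matches to the NRF1 letters, Uqcrc1 held 2, Cox6a1 held 2 beside 1 to the ETS letters, Ndufa6 held 1, and Ndufs7 and Atp5b each held 1 to the YY1 letters, none overlapping another.

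RefSeq windows were matched for 69 of the 84 genes. The NRF1 letters were in a window of 17 of these 69 genes (24.6%), against 5.19% of all 27025 genes with a window. The ETS letters were in 16 (23.2%, against 9.93%) and the YY1 letters in 7 (10.1%, against 1.59%). Any of the 3 was in 34 of 69 (49.3%), against 15.0% of all genes. The core hypoxia element ACGTG, which is short and common, was in 19 (27.5%) against 21.8%. These are matches of letters in a window, not sites of binding. Over windows of tested subunit genes the median log2 fold change was 0.0027 for the 33 windows with any of the NRF1, ETS or YY1 letters. It was −0.039 for the 36 windows without. A gene with more than 1 window was counted once for each, and Atp5c1 and Atp5j stood on both sides. None of the factors' own transcripts was called by edgeR's or DESeq2's test: Gabpa had 111 and 110 CPM in Control and 110 and 107 CPM in Trim33-deficient bodies, Nrf1 had 67.1 and 63.3 against 78.2 and 68.2 CPM, and Yy1 had 155 and 159 against 145 and 146 CPM.

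Levels per transcript length were highest for Atp5b. In Control bodies, Atp5b (the beta subunit of ATP synthase, which forms ATP) stood at 725 CPM per kilobase, followed by Cox4i1 (the common version of the regulatory subunit 4 of complex IV) at 420, Atp5a1 (the alpha subunit) at 408 and Atp5g3 (subunit c of the rotor ring) at 386. The median was 60.6 CPM per kilobase for complex I, 89.9 for complex II, 97.3 for complex III, 71.7 for complex IV and 110.9 for complex V. Lengths came from the GENCODE M21 transcripts on GRCm38, while the counts were made on mm9, so these levels are approximate. Atp5g1 had only 1.0 CPM, and its matched transcript of 4715 bases makes its level per length uncertain.

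Of the 84 genes, 76 had enough counts to be tested: 36 of 37 in complex I, all 4 in complex II, all 8 in complex III, 13 of 18 in complex IV and 15 of 17 in complex V. The untested 8 were of different kinds. Cox8b (heart and muscle) and Cox8c (testis) had 0 counts in all 4 libraries, which allows up to 3 counts in each library, and Cox7b2 had 1 to 3. Cox6a2, the heart and muscle version of subunit 6A, counted 4 and 5 in Control against 29 and 1 in Trim33-deficient bodies. The high value lay in Trim33-deficient replicate 1, which also had the highest cardiomyocyte marker sum (9 of the 10 markers tested, with 210 and 572 CPM in Control against 1565 and 435 CPM in Trim33-deficient bodies, none at 0 in all 4). The part of those cells in the Cox6a2 count was not tested.

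The other untested genes encode subunits that every respiring cell uses, and their counts were low in all 4 libraries. Ndufs5 had 0 counts in all 4 libraries, Atp5l had 0 to 2, Cox7c had 3 to 15 and Atp5g2 had 4 to 12. The share of 50-base windows of the transcript that also occur, letter for letter, in transcripts of genes elsewhere was 41.2% for Ndufs5, 68.5% for Atp5l, 53.0% for Cox7c and 87.4% for Atp5g2. A read that fits several places is often left out of such counts, and the part of that in these low counts was not tested. Among all 84 genes, 35 shared at least 1 window with another gene and 12 shared over 20%. Tested genes in the latter class, such as Ndufa12 (53.8%), Atp5h (50.5%), Uqcrb (43.2%) and Ndufb4 (37.0%), have uncertain levels. The 45 tested genes that shared no window had a median log2 fold change of 0.0023. Exons of 26 genes overlapped those of a gene on the opposite strand, and the 52 tested genes without such an overlap had a median of 0.0025.

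**Figure D1:**
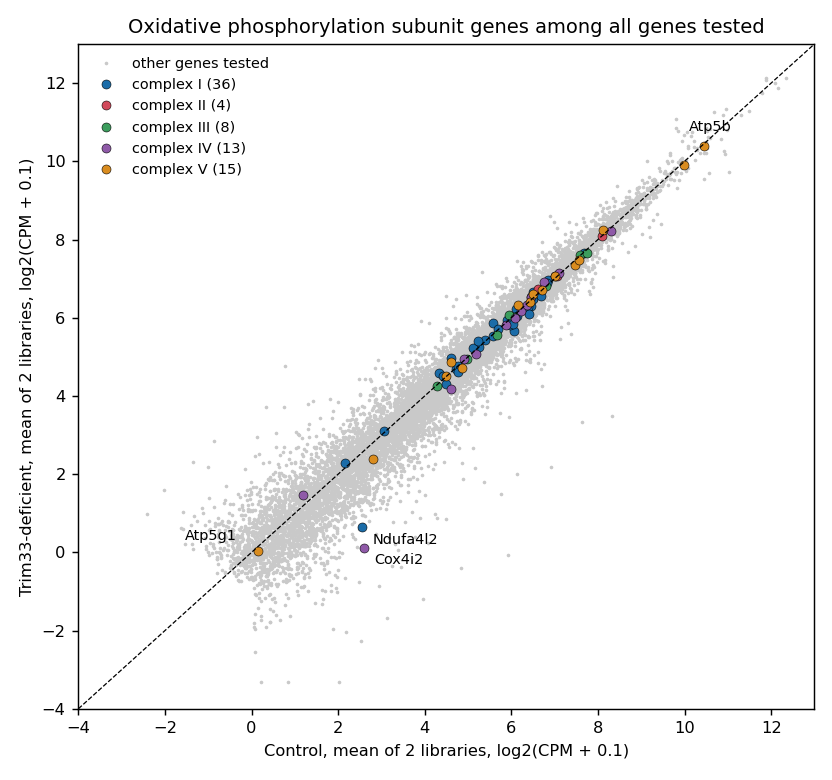
Mean level of each tested gene in Control (horizontal) and Trim33-deficient bodies (vertical), as log2 of CPM plus 0.1, mean of 2 libraries each. Grey points are other genes, coloured points are the 76 subunit genes by complex, and the dashed line marks equal levels. The subunit genes lie close to the line, with Cox4i2 and Ndufa4l2 below it.

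The subunit genes were close to level between Trim33-deficient and Control bodies. None of the 76 was called by edgeR's quasi-likelihood test in either direction at an adjusted p under 0.05, and the smallest adjusted p was 0.530, for Cox4i2. That test called 0.0140% of all 14259 genes lower (2 genes, the visceral endoderm markers Apoc2 and Cubn) and 0 higher. DESeq2, which called 0.792% of all genes lower and 0.161% higher, also called 0 of the 76. At an unadjusted p under 0.05, 4 of the 76 were lower (Cox4i2, Ndufa4l2, Ndufa6 and Ndufs7) and 0 were higher, against 4.78% and 3.06% of all genes. The authors' deposited table lists 84 genes at adjusted p-values up to 0.0496, and 0 of the subunit genes are in it.

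Signs were split, with 39 log2 fold changes (Trim33-deficient over Control) below 0 and 37 above. The median was −0.0093 for the 76 genes, against −0.0014 for all genes tested. By complex it was 0.0010 for complex I, 0.031 for complex II, −0.021 for complex III, −0.045 for complex IV and −0.031 for complex V. The sign was below 0 for complex IV in every alternative run and not stable for the others. The medians of complexes I and II were −0.038 and −0.0087 with total counts and −0.033 and −0.0025 with upper quartile scaling. With 1 library left out they ran from −0.039 to 0.046 for complex I, from 0.0092 to 0.063 for complex II, from −0.083 to 0.074 for complex III, from −0.067 to −0.037 for complex IV and from −0.028 to 0.071 for complex V. The within-group SD of the median deviations of single libraries ran from 0.020 for complex V to 0.081 for complex III. It is a spread of libraries, not the error of a group difference. For complex IV these library medians were 0.057 and 0.019 in Control against −0.025 and −0.056 in Trim33-deficient bodies. For complex V they were 0.0039 and −0.0018 against −0.0055 and 0.034. For the established subunits of complexes IV and V the medians were −0.0017 and 0.00088, with Ndufa4 (log2 fold change 0.18) counted in complex IV. For the 69 established subunits the median was 0.0023.

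Summed over each complex, expression in Trim33-deficient bodies was 98.8% of Control for complex I, 102.5% for complex II, 98.8% for complex III, 97.9% for complex IV and 98.5% for complex V. All subunit genes together summed to 8294 and 8028 CPM in Control against 8028 and 8101 CPM in Trim33-deficient bodies. Control replicate 1 was the highest, and the other 3 libraries lay within a narrow range. The means were 8161 ± 188 CPM (SD, n = 2) and 8064 ± 51.4 CPM (SD, n = 2). In bulk RNA, fewer cells of a type and less RNA per cell cannot be told apart, and these sums average over all cells of the bodies.

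**Figure D2:**
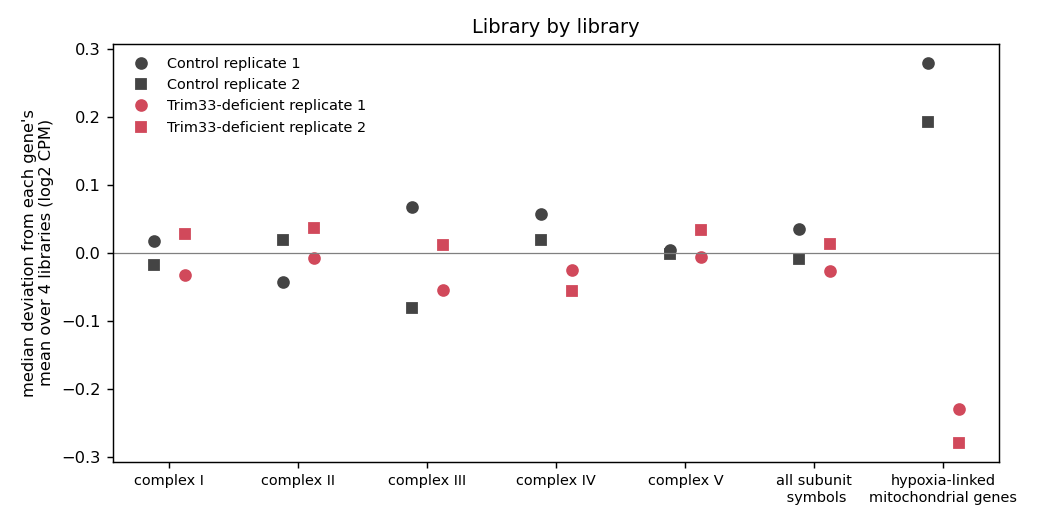
Median deviation, in log2 CPM, of the genes of each group from their own mean over the 4 libraries. Circles are replicate 1, squares replicate 2, grey Control and red Trim33-deficient. The complexes scatter within 0.1 of 0 with no common order of libraries, whereas the hypoxia-linked genes sit at 0.28 and 0.19 in Control and at −0.23 and −0.28 in Trim33-deficient libraries.

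The tested subunit genes also differed less between groups than a typical gene did. The median absolute log2 fold change was 0.084, against 0.204 for all genes tested. Fitted differences were below 1.1-fold for 56 of the 76 (73.7%), against 36.8% of all genes, and below 1.2-fold for 67 (88.2%), against 59.0%. The 75 tested mitochondrial ribosomal proteins were similar, with a median absolute log2 fold change of 0.101. Of these, 66.7% were below 1.1-fold and 90.7% below 1.2-fold, so small differences were not particular to the subunit genes. The dependence of these differences on the level of a gene was not tested. The median difference between group means was 0.081 on the log2 scale. Between the Control replicates it was 0.115, and between the Trim33-deficient replicates 0.091. Over all genes tested the corresponding medians, 0.201, 0.239 and 0.207, ranked the same way. Means of 2 libraries spread less than single libraries, so a smaller group difference can arise without any group effect. These medians therefore cannot show whether a group effect lay below the replicate spread. The group difference exceeded both replicate differences for 25 of the 76 genes. The same count was not made over all genes, so this one is a description only. The 95% interval of the fold change lay inside 1.5-fold either way for 58 of 76 genes and inside 2-fold for 71, so for 5 genes (Cox4i2, Ndufa4l2, Cox7a1, Atp5g1 and Atp5s) a 2-fold difference lay within the interval.

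Libraries of the groups did not overlap for 36 of the 76 genes, against 40.7% of all genes, with 20 lower (26.3%, against 21.4% of all genes) and 16 higher (21.1%, against 19.3%). Both shares were near those of all genes. Between libraries of the same replicate number 25 were lower and 21 higher both times, against 29.8% and 30.3% of all genes. In complex IV 5 were lower and 1 higher without overlap, and in complex I 9 and 10.

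**Figure D3:**
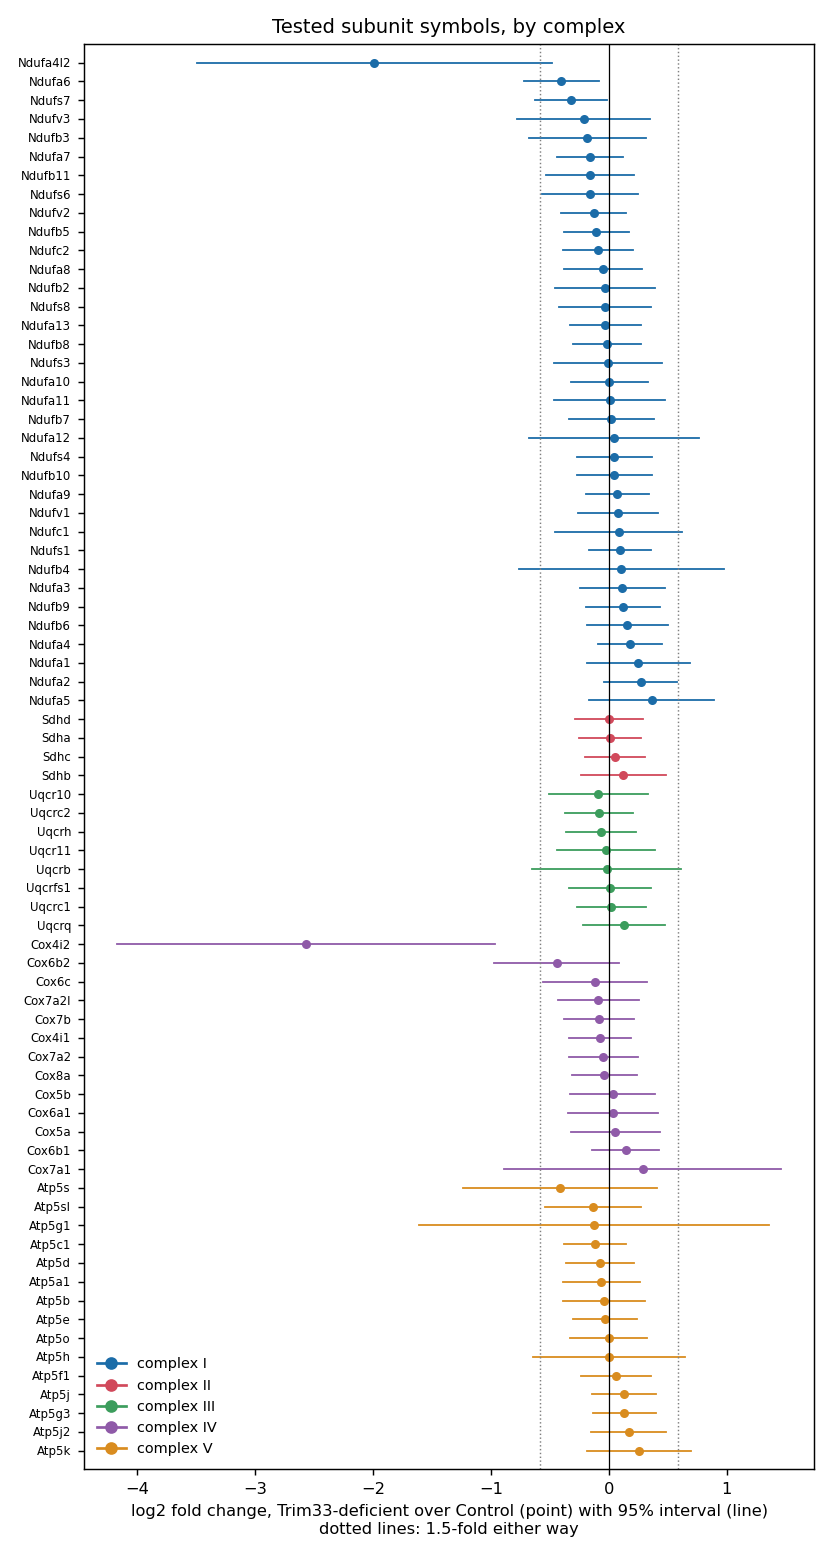
Log2 fold change (point) and 95% interval (line) of the tested subunit genes, without 1 that is not drawn, from edgeR's quasi-likelihood fit, ordered within complex. Dotted lines mark 1.5-fold either way. Most intervals cross 0 inside the dotted lines, and those of Cox4i2 and Ndufa4l2 reach far to the left.

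Core subunits carry the cofactors or form the catalytic and central parts in complexes I, II, III and V. For complex IV the nuclear-encoded Cox4i1, Cox5a and Cox5b were taken, and its mitochondrially encoded catalytic subunits were not analysed. The core subunits so defined were close to level. Of 22 tested, 21 differed by less than 1.1-fold, and their levels in Trim33-deficient bodies ran from 91.6% to 108.8% of Control. The exception was Ndufs7, the iron-sulfur subunit that passes electrons to ubiquinone in complex I. Its levels were 84.0 and 86.3 CPM in Control against 71.8 and 64.8 CPM in Trim33-deficient bodies, with no overlap between the groups. The log2 fold change was −0.32 ± 0.12 (SE, n = 2 per group), with an adjusted p of 0.630 in edgeR's quasi-likelihood test, and it ranged from −0.39 to −0.24 over the alternative settings.

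Fitted differences of Ndufv1, Ndufs1 and Ndufv2, other electron-input subunits of complex I, were smaller. Ndufv1, which binds the flavin that oxidises NADH, had 123 and 103 CPM in Control against 121 and 117 CPM in Trim33-deficient bodies. Ndufs1, which carries iron-sulfur clusters, had 118 and 114 CPM against 122 and 126 CPM. The Ndufv1 groups overlapped, and those of Ndufs1 were apart by a few CPM, higher in Trim33-deficient bodies (log2 fold change 0.10). Ndufv2 had 106 and 99.7 CPM in Control against 94.1 and 94.7 CPM in Trim33-deficient bodies, lower without overlap (log2 fold change −0.13).

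Accessory subunits of complex I, which surround the core, spread more widely in both directions. Ndufa6 had 63.4 and 69.4 CPM in Control against 49.0 and 51.6 CPM in Trim33-deficient bodies. These groups were apart, at a log2 fold change of −0.40 ± 0.12 (SE) and an adjusted p of 0.594 in edgeR's test. On the other side, Ndufa2 had 46.7 and 49.1 CPM in Control against 59.1 and 56.4 CPM in Trim33-deficient bodies, apart and higher at 0.27 ± 0.12 (SE, adjusted p 0.661 in edgeR's test). Ndufa5 had 23.6 and 25.1 against 26.8 and 36.0 CPM, a log2 fold change of 0.37 that was 0.14 without Trim33-deficient replicate 2 and 0.57 without Trim33-deficient replicate 1. Ndufa1 was 19.2 and 20.8 against 24.3 and 23.2 CPM, at 0.25. Ndufb3, Ndufb5, Ndufa7, Ndufc2 and Ndufs6 were lower without overlap, with log2 fold changes from −0.18 to −0.09, and Ndufa3, Ndufa9, Ndufb6, Ndufb9 and Ndufb10 were higher without overlap, from 0.05 to 0.16.

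Complex II, succinate dehydrogenase, which also works in the citric acid cycle, held the narrowest range, from 100.2% to 108.8% of Control. Sdha, the flavin-bearing catalytic subunit, had 272 and 273 CPM in Control against 278 and 270 CPM in Trim33-deficient bodies, with overlapping groups. Sdhb, the iron-sulfur subunit, had 91.2 and 105 CPM against 99.3 and 114 CPM. The 95% interval of the log2 fold change was −0.25 to 0.27 for Sdha and −0.24 to 0.48 for Sdhb. The membrane anchors Sdhc and Sdhd stood at log2 fold changes of 0.053 and 0.0023.

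In complex III all 8 genes differed by less than 1.1-fold, at 94.1% to 109.2% of Control. Uqcrc1 and Uqcrc2 are its core proteins and Uqcrfs1 is the Rieske iron-sulfur protein. Uqcrc1 had 204 and 181 CPM in Control against 193 and 198 CPM in Trim33-deficient bodies. Uqcrfs1 had 117 and 106 CPM against 122 and 104 CPM. In both, the groups overlapped. Cyc1 (cytochrome c1, whose symbol the naming rule does not cover) stood at a log2 fold change of 0.039.

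The catalytic head and central stalk of complex V differed by less than 1.1-fold. Atp5b had 1427 and 1353 CPM in Control against 1371 and 1333 CPM in Trim33-deficient bodies, and Atp5a1 had 1032 and 985 against 970 and 960 CPM. The Atp5b groups overlapped and those of Atp5a1 were apart by a small margin, with log2 fold changes of −0.040 and −0.063. In the central stalk, Atp5c1, Atp5d and Atp5e stood at −0.12, −0.074 and −0.031. In the membrane part and the peripheral stalk, Atp5g3 (0.13), Atp5j (0.13), Atp5j2 (0.17) and Atp5k (0.25) were higher without overlap. None of these passed edgeR's test, with 0.718 the smallest adjusted p among the complex V genes. Atp5s, one of the 2 genes with an Atp5 name that is not an established subunit, had 7.8 and 5.9 CPM against 5.5 and 4.7 CPM, at a log2 fold change of −0.41. Leaving out Control replicate 1 gave −0.20, and leaving out Control replicate 2 gave −0.60.

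The widest differences among the 76 genes were in alternative versions of subunits, at low levels. Cox4i2 is a version of subunit 4 of complex IV that responds to oxygen and replaces Cox4i1 in part. It counted 43 and 87 in Control against 12 and 13 in Trim33-deficient bodies, which is 3.3 and 8.5 CPM against 0.87 and 1.1 CPM. The groups did not overlap, and the second Control library was well above the first. The mean was 16.7% of Control, with a log2 fold change of −2.57 ± 0.61 (SE, n = 2 per group, 95% interval −4.17 to −0.96) and an adjusted p of 0.530 in edgeR's quasi-likelihood test. DESeq2 gave an adjusted p of 0.084. Only edgeR's likelihood ratio test, among the alternatives run, called it, at an adjusted p of 0.028. Without Control replicate 2 the log2 fold change was −1.74, and without Control replicate 1 it was −3.10.

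Cox4i1, the common version, had 317 and 309 CPM in Control against 293 and 302 CPM in Trim33-deficient bodies, a log2 fold change of −0.074. Of the counts on both genes, Cox4i2 made up 1.04% and 2.67% in Control against 0.294% and 0.366% in Trim33-deficient bodies. The 95% Wilson intervals, which cover counting error only, ran from 0.771% to 1.39% and 2.17% to 3.29% in Control, and from 0.168% to 0.514% and 0.214% to 0.626% in Trim33-deficient libraries. The shares in the groups were therefore apart beyond counting error, while 2 libraries a group give little hold on the spread between bodies.

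Ndufa4l2, a hypoxia-inducible paralog of Ndufa4, was next. It counted 93 and 44 in Control against 12 and 24 in Trim33-deficient bodies, or 7.2 and 4.3 CPM against 0.87 and 2.0 CPM, again without overlap. The mean was 25.4% of Control, the log2 fold change −1.99 ± 0.57 (SE, 95% interval −3.49 to −0.48), and the adjusted p 0.577 in edgeR's quasi-likelihood test and 0.310 in DESeq2. Leaving out Trim33-deficient replicate 2 gave −2.71, and leaving out Trim33-deficient replicate 1 gave −1.48. Its partner Ndufa4, the complex IV subunit, was apart in the other direction, at 91.9 and 87.9 CPM in Control against 101 and 102 CPM in Trim33-deficient bodies (log2 fold change 0.18, adjusted p 0.689 in edgeR's test). Ndufa4l2 made up 7.25% and 4.66% of the counts on the pair in Control against 0.849% and 1.96% in Trim33-deficient bodies.

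Cox6b2, a version of subunit 6B known from testis, had 26.3 and 22.6 CPM in Control against 19.8 and 16.2 CPM in Trim33-deficient bodies. The groups were apart at a log2 fold change of −0.44 ± 0.20 (SE, adjusted p 0.664 in edgeR's test), and its share of the counts on Cox6b1 and Cox6b2 was 19.3% and 17.4% in Control against 14.8% and 11.5% in Trim33-deficient bodies. The common Cox6b1 had 110 and 107 CPM against 114 and 125 CPM. The 6 germ and testis markers summed to 15.3 and 7.1 CPM in Control against 4.5 and 5.2 CPM in Trim33-deficient bodies. Of these 6, 4 were tested with log2 fold changes below 0, and the late testis genes Prm1 and Tnp1 were at 0 in all 4 libraries. Their part in the Cox6b2 values was not tested.

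Cox7a1, the heart and muscle version of subunit 7A, had 2.5 and 1.9 CPM in Control against 3.2 and 2.0 CPM in Trim33-deficient bodies. The groups overlapped, and its log2 fold change of 0.29 was −0.074 without Trim33-deficient replicate 1, the library with the highest cardiomyocyte marker sum. The 6 skeletal muscle markers, of which 1 was tested, summed to 25.6 and 34.1 CPM in Control against 39.9 and 44.5 CPM in Trim33-deficient bodies, and the part of either muscle in the Cox7a1 values was not tested. The common Cox7a2 had 76.1 and 72.6 against 73.9 and 70.2 CPM, also overlapping. Of the other common complex IV subunits, Cox5a, Cox5b, Cox6a1, Cox7b and Cox8a had log2 fold changes between −0.081 and 0.056, and Cox6c stood at −0.12 with overlapping groups (36.8 and 35.4 against 29.6 and 37.1 CPM).

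**Figure D4:**
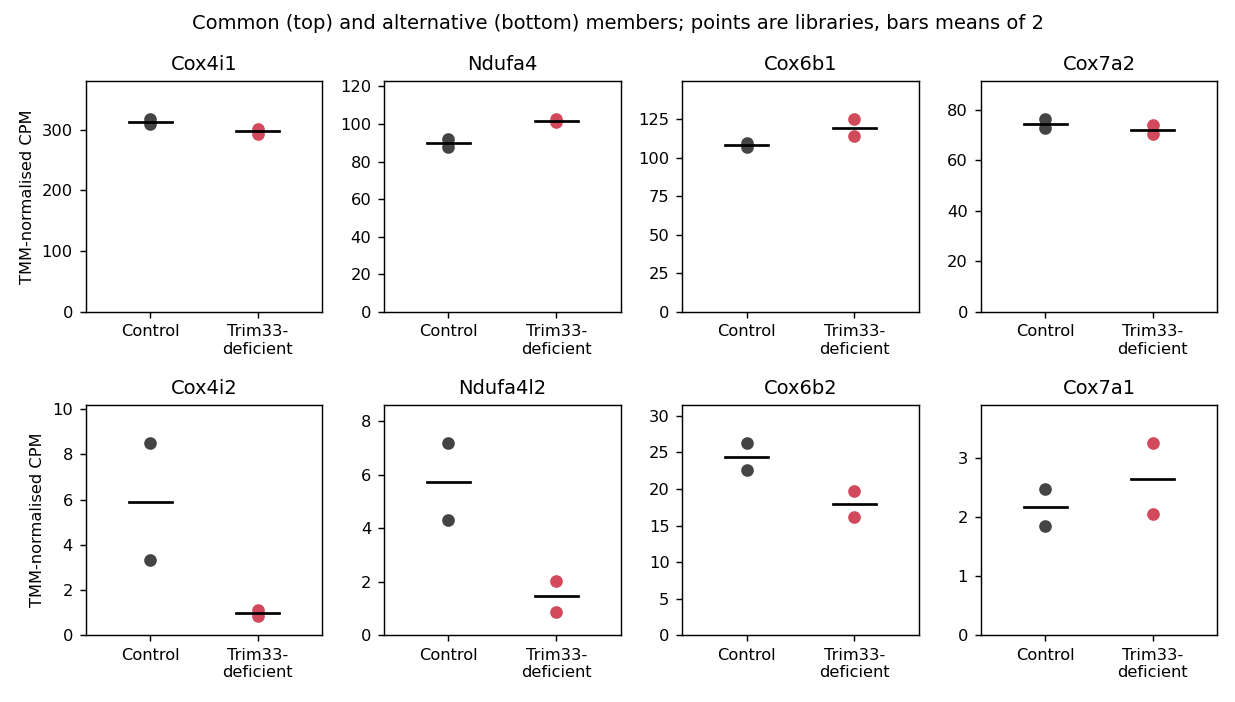
TMM-normalised CPM of common subunits (top) and their alternative versions (bottom) in each library, with bars at group means. Each panel has its own axis from 0. Cox4i2 and Ndufa4l2 are lower in both Trim33-deficient libraries than in either Control library, while Cox4i1 is within a narrow range in all 4.

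Because Cox4i2 and Ndufa4l2 are known as oxygen-responsive genes, 9 other genes linked to hypoxia, most of them mitochondrial, were read beside them. Their median log2 fold change was −0.38, and 7 of the 9 were lower without overlap, against 21.4% of all genes, while Hif1a, which encodes the oxygen-regulated factor itself, was higher without overlap (0.39). DESeq2 called 3 of the 9 lower, against 0.792% of all genes. EdgeR's quasi-likelihood test called 0, with 0.178 its smallest adjusted p. At an unadjusted p under 0.05 it had 4 lower and 1 higher, against 4.78% and 3.06% of all genes. The 3 that DESeq2 called were Bnip3, Pdk1 and Fam162a. Bnip3, which acts in removal of mitochondria, had 85.1 and 77.8 CPM in Control against 28.8 and 31.1 CPM in Trim33-deficient bodies. Pdk1, a kinase that inhibits pyruvate dehydrogenase, had 239 and 210 against 100.5 and 93.7 CPM. Fam162a had 155 and 153 against 81.1 and 94.9 CPM. The log2 fold changes of the 3, in this order, were −1.44, −1.21 and −0.81. The authors' deposited table, made from the same libraries, gives −1.44 for Bnip3 and −1.20 for Pdk1, with adjusted p-values of 9.2e-05 and 6.0e-05. The 9 genes were listed with earlier results of these data known, so their shares are a description and not an independent test. The part of oxygen in these values was not tested.

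Genes that build or supply the complexes were read from further lists. EdgeR's quasi-likelihood test and DESeq2 called 0 genes in each of them, and at an unadjusted p under 0.05 the counts were 0 except for 2 lower and 1 higher among the regulators of biogenesis and 1 each way among mitochondrial ribosomal proteins. The list of complex I assembly factors had a median log2 fold change of −0.11 over 16 genes, 12 below 0. Without overlap, 7 were lower (43.8%, against 21.4% of all genes) and 3 higher (18.8%, against 19.3%). The 16 included Mterfd1 (0.31, higher without overlap), which is not an established assembly factor of complex I. In this list Ndufaf1 had 21.3 and 22.7 CPM in Control against 16.6 and 15.5 CPM in Trim33-deficient bodies (−0.45, adjusted p 0.645 in edgeR's test). Assembly factors of complex IV had a median of −0.041 over 22 genes, those of complex II 0.11 over 3 and those of complex III −0.044 over 5. The complex V list, which included the ATP synthase inhibitor Atpif1, had −0.034 over 4. Other nuclear subunits outside the naming rule, such as Cyc1 and Ndufab1, had a median of 0.045 over 4 genes. Subunits encoded by mitochondrial DNA were not analysed here.

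The 75 tested mitochondrial ribosomal proteins, which make the mitochondrially encoded subunits, had a median of 0.0054. Electron carriers, ubiquinone synthesis and exchange proteins of the inner and outer membrane had a median of −0.023 over 17 genes. Citric acid cycle and pyruvate dehydrogenase genes had a median of 0.025 over 16. In that list Pdha1, the regulated subunit of pyruvate dehydrogenase, had 303 and 217 CPM in Control against 193 and 177 CPM in Trim33-deficient bodies (−0.49), a value that was −0.24 without Control replicate 1. Idh3b had 149 and 141 against 122 and 120 CPM (−0.26).

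Regulators of mitochondrial biogenesis had a median of −0.041 over 16 genes. Polg, the mitochondrial DNA polymerase, had 226 and 216 CPM in Control against 166 and 127 CPM in Trim33-deficient bodies, and Tfb1m, a methyltransferase of mitochondrial ribosomal RNA, had 22.9 and 22.1 against 14.3 and 12.7 CPM. Both were lower without overlap (−0.59 and −0.73), each with an adjusted p of 0.548 in edgeR's test. Ppargc1a, a coactivator of respiratory genes, was low, at 1.9 and 1.1 CPM in Control against 4.1 and 3.0 CPM in Trim33-deficient bodies (1.26, adjusted p 0.637 in edgeR's test). Tfam, the packaging factor of mitochondrial DNA, had 83.8 and 87.2 against 89.9 and 79.3 CPM, with overlapping groups.

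**Figure D5:**
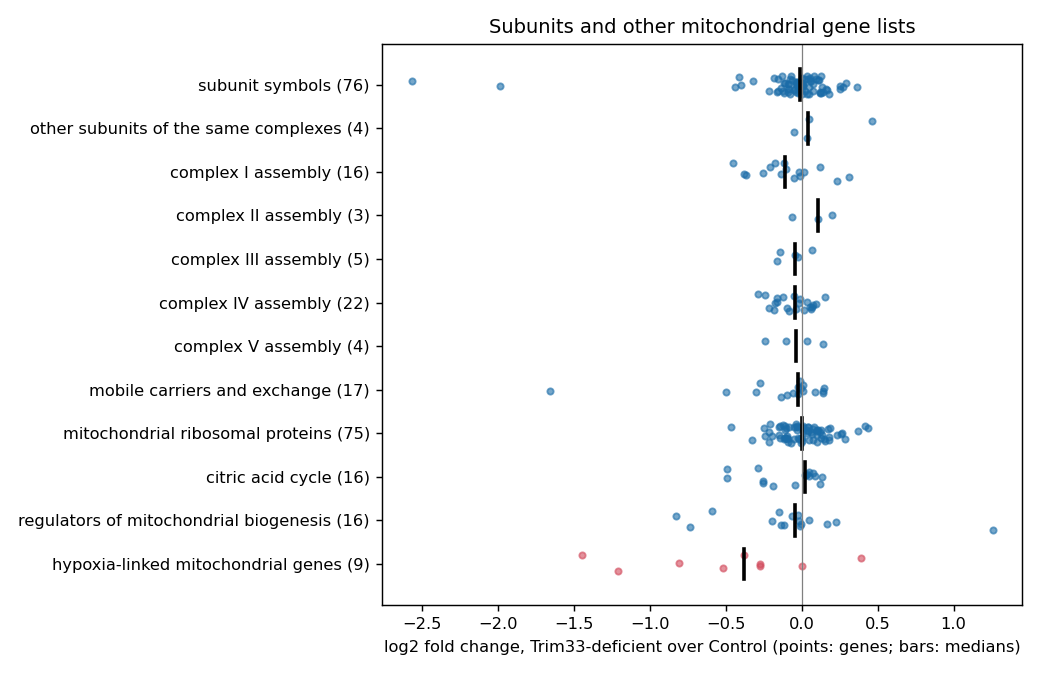
Log2 fold change of each tested gene in the subunit list and 11 other mitochondrial lists, with bars at medians and the number tested in brackets. Medians of the subunits and of most lists sit near 0, and that of the hypoxia-linked genes, in red, at −0.38.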

How the data were processed

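Total RNA of day 7 embryoid bodies went into standard Illumina libraries, per the labels' protocols, and the mode of RNA selection was not stated. STAR, HTSeq, DESeq and build mm9 are named, without versions or roles, by the submitters' processing notes. Values in the deposited files of single libraries are unnormalised counts for each gene symbol. Strand and multi-mapping settings were not given in the sources used here. If the counting ignored strand, reads from opposite strands of overlapping genes cannot be told apart. Rows that name no gene, which held 55.5% to 56.0% of reads as no feature and at most 0.200% as ambiguous, stayed out of library sizes and tests. The authors' deposited table gives, per its file header, for each of 84 genes the mean normalised signal, fold ratio, its log2, and p-values before and after adjustment.

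Libraries were grouped by title, 2 against 2. Nothing says whether the independent pairs are separate cultures or lines, so the p-values reflect only how these libraries spread, which may be technical in part. Replicates of a group differed beyond sampling noise (chi-square per degree of freedom of 35.7 in Control and 24.3 in Trim33-deficient). Genes were filtered with filterByExpr (14259 kept), scaled by TMM and tested two-sided with edgeR 4.0.16 (quasi-likelihood F-test, no replicate block, Benjamini-Hochberg over all genes tested, threshold 0.05) in R 4.3.3. The standard error is the absolute log2 fold change over the square root of F. DESeq2 1.42.0, the likelihood ratio test, other scalings and filters, a replicate block and each library left out were alternatives. Groups were called apart where both libraries of one lay above both of the other in CPM. With 2 against 2 an exact permutation test of 1 gene cannot pass the threshold, so none was run.

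Single-gene names followed a rule: core subunits, alternative versions of a subunit, genes with the smallest p in each complex and direction, misnamed genes, and from other lists the smallest p and the regulators of biogenesis. Other genes named for their level, library values or shared sequence were chosen after their values were seen. The subunit genes, the lists and the tests were chosen with earlier results of these data known. Promoters came from RefSeq and transcripts from GENCODE M21, both on GRCm38. Their coordinates were not joined to the counts. The single values of 1 subunit gene are not reported here, while counts and medians over the subunit genes include it.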

Additional observations from a re-analysis of the deposited data

How the results depend on the processing

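With 2 libraries a group, these data limit each subunit gene to the intervals given, and no subunit gene changed sides of the threshold except Cox4i2. None of the 98 single genes followed was called in the main fit, so there was no call among them to reverse. DESeq2 called 113 genes lower and 23 higher among all genes, and Trim33 at −1.22, and the likelihood ratio test called 140 and 29, Trim33 at −1.23 and 1 subunit gene lower. Without a filter on low counts 14 genes were called lower and the median of complex V was 0.0028. With upper quartile scaling the medians of complex IV, complex V and all subunit genes were −0.079, −0.065 and −0.042, where the median of all genes was −0.035. With total counts those of complexes I, II, IV, V and all subunit genes were −0.038, −0.0087, −0.086, −0.071 and −0.047, where that of all genes was −0.042. With established subunits only, and Ndufa4 counted in complex IV, complexes IV and V stood at −0.0017 and 0.00088. The split of all genes moved from 50.2% below 0 to at most 56.4%.

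Leaving out 1 library at a time gave 0 to 66 genes called lower and 0 to 25 called higher, both highest without Control replicate 2, and 24 to 37 subunit genes lower and 20 to 31 higher without overlap, where 30.6% to 40.6% of all genes were lower and 30.7% to 38.5% higher. The medians then ran from −0.039 to 0.046 for complex I, −0.083 to 0.074 for complex III, −0.028 to 0.071 for complex V and −0.040 to 0.0082 for all subunit genes. The cause of these shifts was not tested, beyond the fewer libraries, with which the groups fail to overlap more often by construction. In those fits the group with 1 library borrows its spread from the other group. Over 98 single genes, 1151 of 1174 values kept their side of the threshold and moved by less than 1 SE, 16 moved farther and 7 passed the threshold. The fit with a replicate block called 0 subunit genes, 2 genes lower and 0 higher, with a smallest adjusted p of 0.263 among subunit genes and a median of −0.010, and it changed no call. The labels speak of pairs without saying that the replicate number marks them, and deviations of same-numbered libraries correlated at 0.236 over all genes and 0.129 over the subunit genes. The count of groups without overlap takes no replicate block.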
